A study of Arabidopsis thaliana with 6 samples.

Results

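The 10 genes described here encode calmodulin-like calcium sensors of Arabidopsis thaliana that are known for responses to touch, wounding and attack: TCH2 (also CML24), TCH3 (also CML12), CML23, CML37, CML38, CML39, CML9, CML41, CML42 and CML43. They were listed by name, with earlier results of these data known, and found by gene code among the 32313 gene codes of the count table. All 10 were found, and 9 of them passed the filter on low counts, among 19436 genes tested. CML39 did not pass it.

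RNA-seq counts came from whole seedlings of line BP12-2 and of the Columbia wild type (WT), with 3 libraries per group. The labels describe BP12-2 as a TOR knockdown; TOR is the kinase that rapamycin targets, and lines named BP12 express FKBP12 from yeast, through which the drug reaches plant TOR. Both groups were treated 15 days after germination by 3 days on 0.5 MS medium with 10 µg/ml rapamycin, and 1 BP12 line was used. The question was how BP12-2 transcript levels compare with WT under the drug. Seedlings on solvent medium were not analysed here, so a difference present without rapamycin cannot be told apart from one that needs it. The labels do not say that the libraries of a group were grown separately, so p-values cover the spread among these samples, possibly a technical one.

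Calmodulin-like proteins bind calcium through EF hands, each of which wraps a short loop around the ion. A touch, a wound or a microbial signal raises calcium in the cytosol, and the sensor then changes shape and binds other proteins. Several of these genes are also known as early response genes, whose transcripts accumulate soon after a plant is touched or wounded.

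The genes fall into pairs and single copies by sequence. TCH2 and CML23 were identical at 81.2% of aligned coding bases, CML38 and CML39 at 83.4%, and CML42 and CML43 at 80.0%. Over the 45 pairs of the 10 genes the median was 63.7%. The first calcium loop of the coding sequence is shown for these pairs and for CML37, because it shows what makes a gene a calcium sensor and how close the copies are. Each loop has 12 codons, read 5′ to 3′ on the coding strand from the TAIR10.1 genome and the RefSeq gene models. Capitals mark the codons of loop positions 1, 3, 5 and 12, which carry calcium ligands.
TCH2: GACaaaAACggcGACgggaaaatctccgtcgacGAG
CML23: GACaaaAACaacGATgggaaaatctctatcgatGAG
CML38: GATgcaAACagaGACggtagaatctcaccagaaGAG
CML39: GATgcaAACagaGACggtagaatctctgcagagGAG
CML37: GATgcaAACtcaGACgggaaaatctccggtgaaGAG
CML42: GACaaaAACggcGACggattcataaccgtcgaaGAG
CML43: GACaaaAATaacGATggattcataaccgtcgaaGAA

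TCH3 carries its loops in repeated copies. A stretch of its coding sequence recurred 267 bases further on with 94.8% identical bases, so its loop 1 and loop 3 had the same letters, as did loop 2 and loop 4. They are shown because both copies hold identical letters.
TCH3 loop 1 and loop 3: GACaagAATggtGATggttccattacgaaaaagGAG
TCH3 loop 2 and loop 4: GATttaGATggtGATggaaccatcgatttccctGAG

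The letters CGCGTT, known from promoters of rapid stress responses, were searched on both strands in the 300 bases before each gene. TCH2 and CML23 held them, which is 2 of the 10 genes, against 826 of 26642 protein-coding genes (3.10%). The stretch around the matches is printed below 5′ to 3′ on the gene's strand, with the matches in capitals. In TCH2 it is chr5:14999661-14999715 of TAIR10.1, minus strand, from 96 to 42 bases before the annotated start, with 4 overlapping matches counting both strands. In CML23 it is chr1:24771413-24771446, minus strand, from 53 to 20 bases before the start, with 1 match.
TCH2: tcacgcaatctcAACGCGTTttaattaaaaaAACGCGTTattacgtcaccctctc
CML23: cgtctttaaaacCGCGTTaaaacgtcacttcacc

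In both genes the letters are followed at the same distance by ACGTCAC. The joint letters CGCGTTNNNACGTCAC, chosen after these windows had been read, occurred on either strand in the windows of 2 of the 26642 genes (0.00751%), TCH2 and CML23. Of the other motifs searched on both strands, CACGTG was in 0 of the 10 windows, against 7.20% of all windows. The letters TTGAC followed by C or T were in 1, that of CML38, against 32.3%, and ACGTG followed by T or G were in 2, those of TCH3 and CML39, against 18.1%. A match describes letters in a window and says nothing about binding.

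Total counts ran from 6706610 to 17092773 in BP12-2 and from 7611017 to 16371859 in WT. The TOR transcript was at 32.4, 27.8 and 32.6 CPM (the count as a share of the TMM-scaled library total) in BP12-2 replicates 1 to 3, against 34.3, 35.9 and 38.5 CPM in WT, with an edgeR quasi-likelihood adjusted p = 0.292, above the threshold of 0.05. Clock transcripts set BP12-2 replicate 1 and WT replicate 3 apart: LHY was at 23.2 CPM in that BP12-2 library and 27.0 CPM in that WT library, against 179 and 193 CPM in the other BP12-2 libraries and 140 and 172 CPM in the other WT libraries. The summed level of 6 leaf mesophyll markers was 35800 to 39556 CPM in BP12-2 and 27928 to 30326 CPM in WT, and all 6 had positive log2 fold changes. That of 11 root markers was 325 to 394 CPM in BP12-2 and 277 to 367 CPM in WT, with 8 positive. No listed root or leaf marker passed the edgeR quasi-likelihood test at the adjusted threshold. At an unadjusted p under 0.05 in that test, 3 of 6 leaf markers and 4 of 11 root markers were higher, against 9.03% of all genes, and 0 were lower. The part of organ proportions in the results below was not tested, and in whole seedlings fewer cells of a type and less RNA per cell cannot be told apart. The column names carry the code L08 for BP12-2 and L07 for WT, a code of unknown meaning that cannot be told apart from genotype.

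Of the 9 calmodulin-like genes tested, 7 had lower and 2 had higher fitted levels in BP12-2 than in WT. Their median log2 fold change was -0.46, against 0.01 over all genes tested. None passed the edgeR quasi-likelihood test, in which 0.0669% of all genes were called. TCH3, CML23, CML38 and CML9 were lower at an unadjusted p under 0.05, which is 4 of 9, against 9.20% of all genes. For TCH3, CML23 and CML9 all BP12-2 libraries lay below all WT libraries, which is 3 of 9 (33.3%), against 12.2% of all genes. TCH3 was the 1 member called by DESeq2 (3.19% of all genes called), by the edgeR exact test (4.33%) and by the quasi-likelihood fit with a term for the libraries that stood apart in clock transcripts (5.10%). limma voom (0.113% of all genes called) called 0 of the 9. By limma voom, 4 of the 9 had an unadjusted p under 0.05, against 3702 of the 19436 genes tested. That total counts both directions, while these 4 members were all lower.

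**Figure D1:**
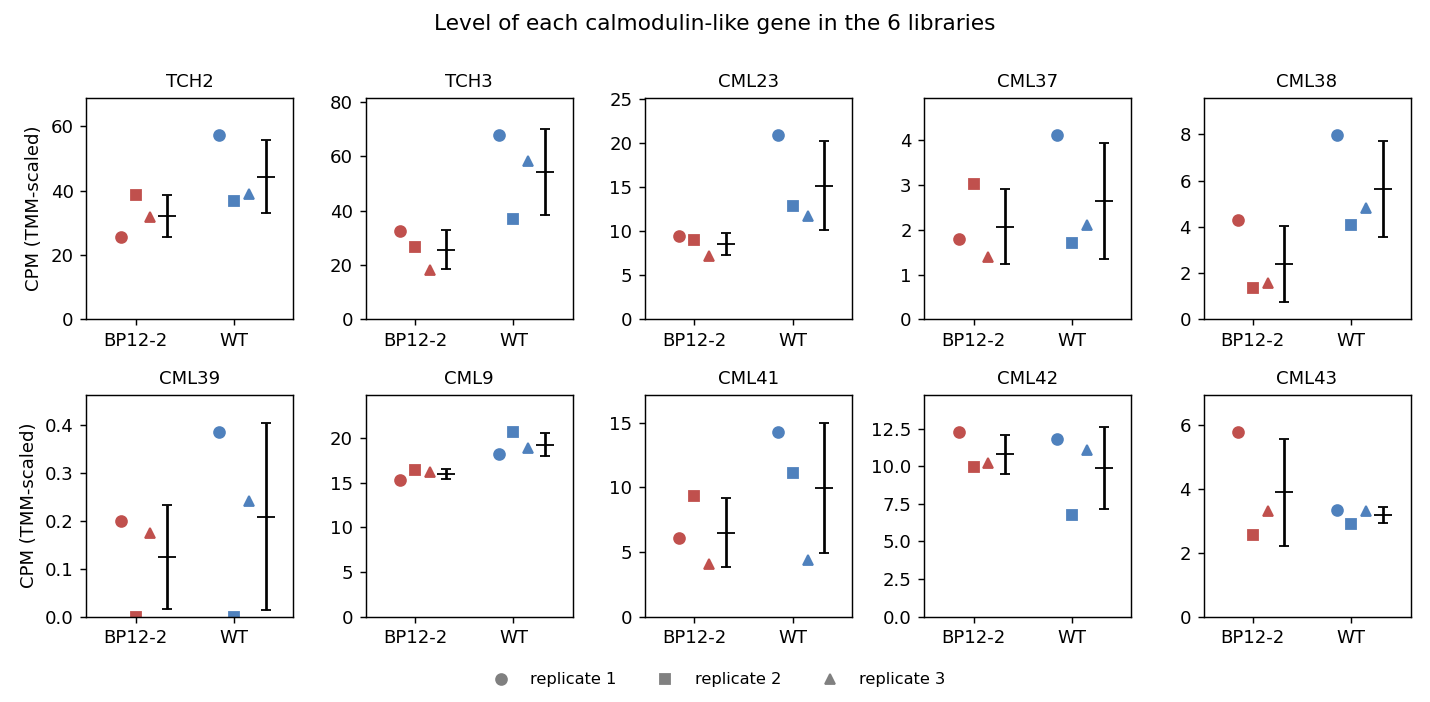
Level of each of the 10 genes in CPM, with BP12-2 left of WT in each panel, the replicate number shown by the marker shape, and the black bar giving the mean ± SD of 3 libraries. TCH3, CML23 and CML9 have all BP12-2 points below all WT points, while the points of the other genes overlap between the groups.

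TCH3, a touch-induced gene for a sensor with more calcium loops than calmodulin, had 32.4, 26.5 and 18.0 CPM in BP12-2 replicates 1 to 3, against 67.9, 37.0 and 58.1 CPM in WT replicates 1 to 3. The highest BP12-2 library was below the lowest WT library, WT replicate 2. Means were 25.6 ± 7.23 CPM in BP12-2 and 54.3 ± 15.8 CPM in WT (SD, n = 3 each). The log2 fold change was -1.09 ± 0.27 (SE), a BP12-2 to WT ratio of 0.472, with an unadjusted p = 0.00438 and an adjusted p = 0.116 in the edgeR quasi-likelihood test. The call depended on the test: the adjusted p was 0.00837 by DESeq2 and 0.0100 by the edgeR exact test. With a term for BP12-2 replicate 1 and WT replicate 3, the log2 fold change was -1.11 and the edgeR quasi-likelihood adjusted p = 0.0424. In the 4 libraries without that pair it was -1.25, and the call was not made (edgeR adjusted p = 0.113). TCH3 (AT2G41100) lies on the plus strand at chr2:17137037-17139700 of TAIR10.1, and 0.387% of its 50-base words occur in its neighbour AT2G41090. A further 6.92% lie in AT2G41105 and 6.24% in AT2G09220, overlapping models on the opposite strand that were not analysed here, so the strand of those reads is uncertain.

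TCH2, the touch-induced paralog of CML23, had 25.7, 38.7 and 31.9 CPM in BP12-2, against 57.4, 36.7 and 38.8 CPM in WT. BP12-2 replicate 2 lay within the WT range, and WT replicate 1 was well above the other libraries. The log2 fold change was -0.46 ± 0.21 (edgeR adjusted p = 0.291). TCH2 (AT5G37770) lies at chr5:14997514-14999619 on the minus strand. Its exons overlap those of AT5G37760 on the opposite strand, which had at most 2 counts in any library. Strand use in counting is not stated, so reads in the overlap cannot be assigned to a strand.

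CML23, which acts with TCH2 in nitric oxide levels and flowering, had 9.48, 9.03 and 7.16 CPM in BP12-2, against 21.0, 12.9 and 11.7 CPM in WT. The groups did not overlap, and WT replicate 1 stood above every other library. The log2 fold change was -0.82 ± 0.24 (unadjusted p = 0.0109, edgeR adjusted p = 0.154). CML23 (AT1G66400) lies at chr1:24770419-24771393 on the minus strand and shares 0 of its 50-base words with other genes, as do the other 7 members besides TCH2 and TCH3.

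CML38, induced by wounding and by low oxygen, had 4.29, 1.35 and 1.57 CPM in BP12-2, against 7.99, 4.09 and 4.82 CPM in WT. BP12-2 replicate 1, at 4.29 CPM, was just above WT replicate 2, at 4.09 CPM, and the other BP12-2 libraries were below all WT libraries. These levels rest on 43, 9 and 27 counts in BP12-2 and 62, 55 and 80 counts in WT. The log2 fold change was -1.19 ± 0.45, with an unadjusted p = 0.031 and an edgeR adjusted p = 0.224.

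CML39, the neighbour of CML38 and known in early seedling growth, had 2, 0 and 3 counts in BP12-2 and 3, 0 and 4 counts in WT. A count of 0 allows up to 0.447 CPM in BP12-2 replicate 2 and 0.221 CPM in WT replicate 2, at 3 counts and for counting error alone. No difference was detectable at this depth. CML38 and CML39 lie on the minus strand of chromosome 1, 883 bases apart, at chr1:28766750-28768138 and chr1:28765254-28765866.

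CML37, known in wound and drought responses, had 1.80, 3.01 and 1.40 CPM in BP12-2, against 4.12, 1.71 and 2.11 CPM in WT. The groups overlapped, with the highest level in WT replicate 1 and the lowest in BP12-2 replicate 3. Its log2 fold change was -0.37 ± 0.42 (edgeR adjusted p = 0.684) and was 0.01 without WT replicate 1. The counts behind these levels were 18 to 24 in BP12-2 and 23 to 35 in WT. CML37 (AT5G42380) lies at chr5:16942447-16943820 on the minus strand.

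CML9, a sensor known from abscisic acid, salt and flagellin responses, had 15.3, 16.4 and 16.2 CPM in BP12-2, against 18.2, 20.7 and 18.9 CPM in WT. All BP12-2 libraries were below all WT libraries, and the SD relative to the mean was the smallest of the 9 tested genes in both groups. Means were 15.9 ± 0.599 CPM in BP12-2 and 19.2 ± 1.29 CPM in WT (SD, n = 3 each). The log2 fold change was small, at -0.27 ± 0.10, with an unadjusted p = 0.0295 and an edgeR adjusted p = 0.221. CML9 (AT3G51920) lies at chr3:19267951-19269658 on the minus strand.

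CML41, linked to plasmodesmata and immunity, had 6.09, 9.33 and 4.07 CPM in BP12-2, against 14.3, 11.1 and 4.40 CPM in WT. WT replicate 3 lay near the lowest BP12-2 library, and the other WT libraries were above all BP12-2 libraries. The log2 fold change was -0.63 ± 0.46 (unadjusted p = 0.207, edgeR adjusted p = 0.512). CML41 (AT3G50770) lies at chr3:18873911-18874836 on the plus strand.

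CML42 and its paralog CML43 had the fitted log2 fold changes that were positive. CML42, known from trichome branching and herbivore defence, had 12.3, 9.93 and 10.2 CPM in BP12-2, against 11.8, 6.76 and 11.1 CPM in WT. CML43, known from immune responses, had 5.79, 2.56 and 3.32 CPM in BP12-2, against 3.35, 2.90 and 3.31 CPM in WT. The groups overlapped for both genes, and the highest level of each was in BP12-2 replicate 1. The log2 fold changes were 0.14 ± 0.22 for CML42 and 0.30 ± 0.30 for CML43 (edgeR adjusted p = 0.789 and 0.637). Leaving out WT replicate 2 gave -0.08 for CML42, and leaving out BP12-2 replicate 1 gave -0.07 for CML43. CML42 (AT4G20780) lies at chr4:11133095-11134075 on the minus strand and CML43 (AT5G44460) at chr5:17916993-17918001 on the plus strand. Of the trichome genes, GL2 had 10.8, 13.2 and 14.1 CPM in BP12-2, against 13.8, 14.0 and 11.3 CPM in WT, and the log2 fold change of GL3 was -0.90 ± 0.25 (edgeR adjusted p = 0.140).

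Levels between genes were compared per kilobase of exon, with the length taken over all RefSeq exons of a gene in TAIR10.1. The counts were made on TAIR9, and how reads in overlapping models were counted is not known. The order between genes may therefore depend on the lengths used. In BP12-2, TCH2 was highest at 16 ± 3.22 CPM per kilobase, followed by CML9 at 15.5 ± 0.583, CML42 at 11 ± 1.31, TCH3 at 10.1 ± 2.84, CML23 at 8.77 ± 1.26 and CML41 at 7.01 ± 2.86 (SD, n = 3). CML43, CML38, CML37 and CML39 came next, at 3.85 ± 1.67, 2.42 ± 1.65, 1.50 ± 0.611 and 0.203 ± 0.177. In WT the order was TCH2 at 22.1 ± 5.68, TCH3 at 21.3 ± 6.19, CML9 at 18.7 ± 1.26, CML23 at 15.6 ± 5.20, CML41 at 10.7 ± 5.45 and CML42 at 10.1 ± 2.80, followed by CML38 at 5.67 ± 2.09, CML43 at 3.16 ± 0.248, CML37 at 1.93 ± 0.941 and CML39 at 0.341 ± 0.318. Neighbours in this order mostly had overlapping libraries. Those without overlap were CML9 and CML42 and CML37 and CML39 in BP12-2, and CML38 and CML43 and CML37 and CML39 in WT.

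The libraries of a group did not share 1 level of these genes. Centred on each gene's mean over the 6 libraries, the median of the 9 tested genes was -0.19, -0.09 and -0.60 in BP12-2 replicates 1 to 3 and 0.85, 0.03 and 0.07 in WT replicates 1 to 3, on the log2 CPM scale. WT replicate 1 was the highest library for 6 of the 9 genes, namely TCH2, TCH3, CML23, CML37, CML38 and CML41. BP12-2 replicate 3 was the lowest for TCH3, CML23, CML37 and CML41. Summed over the 10 genes, the level was 113, 117 and 94.0 CPM in BP12-2, against 206, 134 and 153 CPM in WT. With each library left out in turn, the log2 fold change ran from -1.31 to -0.87 for TCH3, from -0.98 to -0.53 for CML23 and from -0.61 to -0.24 for TCH2. For CML38 it ran from -1.87 without BP12-2 replicate 1 to -0.88 without BP12-2 replicate 3. For CML41 it ran from -1.02 without WT replicate 3 to -0.30 without WT replicate 1.

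**Figure D2:**
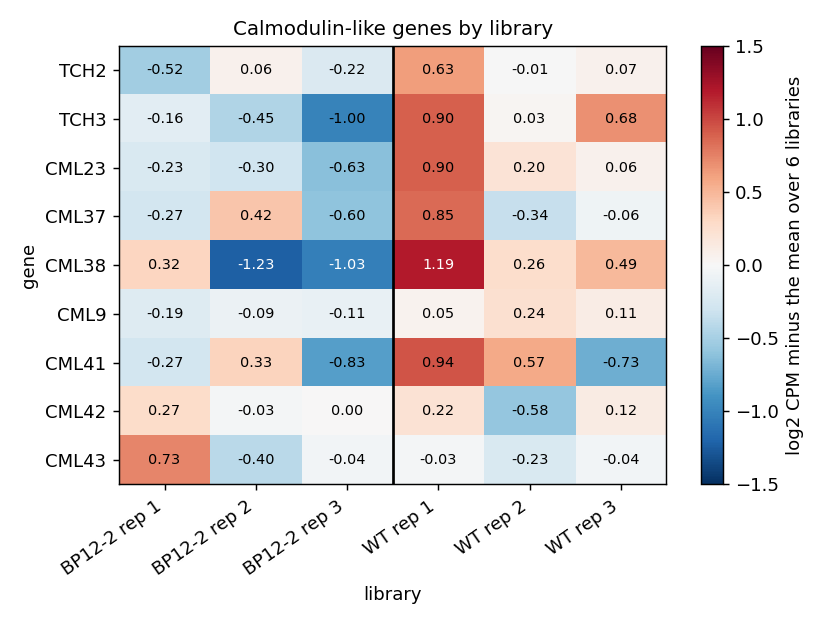
Log2 CPM of each tested gene minus its mean over the 6 libraries, with the BP12-2 libraries left of the line and the WT libraries right of it. WT replicate 1 holds the highest value of 6 genes, and BP12-2 replicate 3 the lowest of 4.

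**Figure D3:**
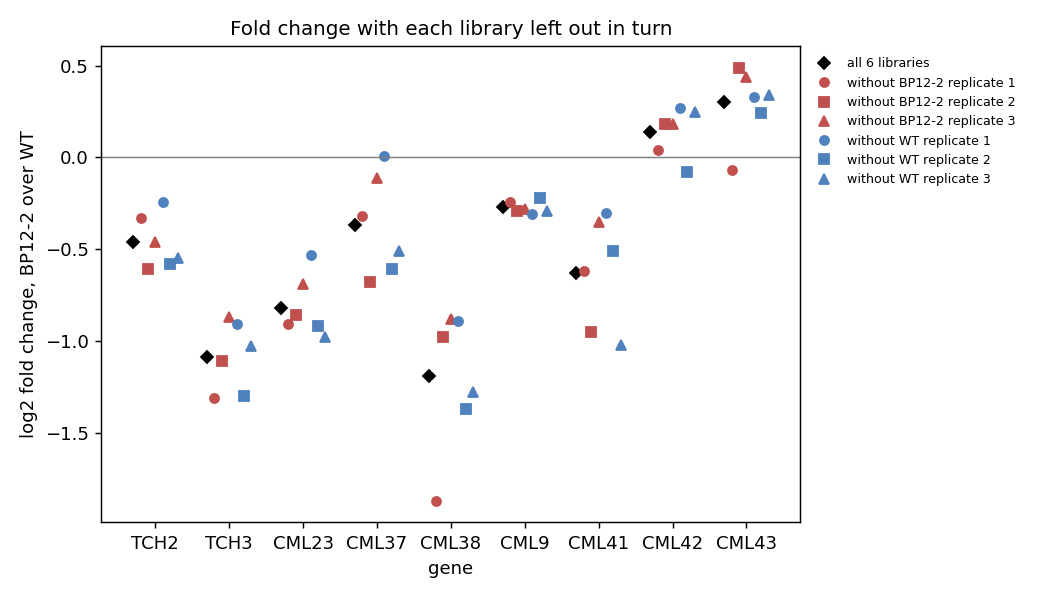
Log2 fold change of BP12-2 over WT for each tested gene, with all 6 libraries (black diamonds) and with each library left out in turn. TCH2, TCH3, CML23, CML38, CML9 and CML41 stay below 0 in every case, while CML37, CML42 and CML43 cross it in 1 case each.

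Some genes outside the list had a like pattern over the libraries. Among genes with a mean of at least 5 CPM, the highest Pearson correlations with the mean standardised pattern of the members were those of ALDH10A8 (0.991), AT3G46600 (0.983), MYB73 (0.978), AT3G13224 (0.975) and AT5G42830 (0.974), over 6 libraries and 14812 genes searched. A correlation takes no account of the size of a change. The log2 fold changes were -0.09 ± 0.09 for ALDH10A8 and -0.14 ± 0.11 for AT3G13224, with overlapping groups. Those of AT3G46600, MYB73 and AT5G42830 were -0.76, -0.48 and -0.49, without overlap, as for 12.2% of all genes with all BP12-2 libraries below all WT libraries. The members' pattern was itself lower in BP12-2. The direction and separation of genes picked by correlation with it therefore follow from the choice and are no separate result. The members themselves, which make up the pattern, ran from 0.97 for CML23 and 0.93 for TCH3 to 0.26 for CML42 and 0.03 for CML43.

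Calmodulin is the conserved calcium sensor that these genes resemble. Of its 7 genes, 5 had positive log2 fold changes, with a median of 0.14, and 0 passed the edgeR quasi-likelihood test; 2 were higher at an unadjusted p under 0.05, against 9.03% of all genes. CAM3 had 162, 171 and 179 CPM in BP12-2, against 140, 148 and 134 CPM in WT, and CAM7 had 77.6, 80.5 and 80.4 CPM in BP12-2, against 57.8, 53.2 and 73.1 CPM in WT. All BP12-2 libraries were above all WT libraries for both genes, which is 2 of 7, against 2347 of the 19436 genes tested. The edgeR adjusted p was 0.171 for CAM3 and 0.195 for CAM7.

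TCH2, TCH3 and CML23 each lie beside a calmodulin gene. CAM1, 4846 bases from TCH2, had 146, 99.7 and 105 CPM in BP12-2, against 97.5, 88.4 and 132 CPM in WT. CAM2, 482 bases from TCH3, had 57.0, 62.6 and 57.0 CPM in BP12-2, against 60.8, 47.6 and 47.2 CPM in WT. CAM4, 2719 bases from CML23, had 167, 107 and 122 CPM in BP12-2, against 117, 123 and 172 CPM in WT. The groups overlapped for all 3 calmodulin neighbours. On the other side of TCH3, 37 bases away, the EF-hand gene AT2G41090 had 118, 79.1 and 108 CPM in BP12-2, against 127, 167 and 125 CPM in WT, without overlap (log2 fold change -0.45 ± 0.18, edgeR adjusted p = 0.238).

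Other genes of the calmodulin-like family had fold changes of both signs. Of 40 listed, 26 were tested, 17 with negative and 9 with positive log2 fold changes (median -0.11), and 0 passed the edgeR quasi-likelihood test. At an unadjusted p under 0.05, 10 of 26 were lower and 4 were higher, against 9.20% and 9.03% of all genes. All BP12-2 libraries lay below all WT libraries for 10 of 26 (38.5%), against 12.2% of all genes. They lay above for 4 of 26, against 2347 of the 19436 genes tested. AT3G10190, annotated as similar to calmodulin, had 12.1, 11.1 and 12.2 CPM in BP12-2, against 20.0, 18.4 and 20.4 CPM in WT (edgeR adjusted p = 0.0693). CML11 had 4.79, 5.57 and 5.82 CPM in BP12-2, against 9.92, 12.3 and 8.73 CPM in WT (edgeR adjusted p = 0.0826). The libraries of AT3G10190 varied little within a group, while those of CML11 varied more in WT (10.3 ± 1.84 CPM, SD). Neither gene overlapped between the groups. CML3 was on the other side, with 27, 10 and 24 counts in BP12-2 and 6, 4 and 4 counts in WT (log2 fold change 2.25 ± 0.49, edgeR adjusted p = 0.0956).

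Other touch and wound genes were tested beside the calmodulin-like ones. Of 12 listed, 11 were tested, and 10 had negative log2 fold changes (median -0.78); 0 passed the edgeR quasi-likelihood test, and 8 were lower at an unadjusted p under 0.05, against 9.20% of all genes. XTH22 (also TCH4), a touch-induced enzyme of cell wall xyloglucan, had 61.5, 39.6 and 29.2 CPM in BP12-2, against 103, 35.2 and 80.7 CPM in WT, with WT replicate 2 inside the BP12-2 range. ZAT10, a zinc finger repressor of stress responses, had 12.4, 10.4 and 5.65 CPM in BP12-2, against 35.5, 17.1 and 36.6 CPM in WT. WRKY40, a transcription factor of defence, had 2.99, 1.81 and 2.39 CPM in BP12-2, against 10.6, 4.83 and 7.83 CPM in WT. ZAT10 and WRKY40 did not overlap between the groups, and WT replicate 2 was the lowest WT library for all 3 genes. Of the 11 tested, 5 (45.5%) had all BP12-2 libraries below all WT libraries, against 12.2% of all genes, and 0 had them above.

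**Figure D4:**
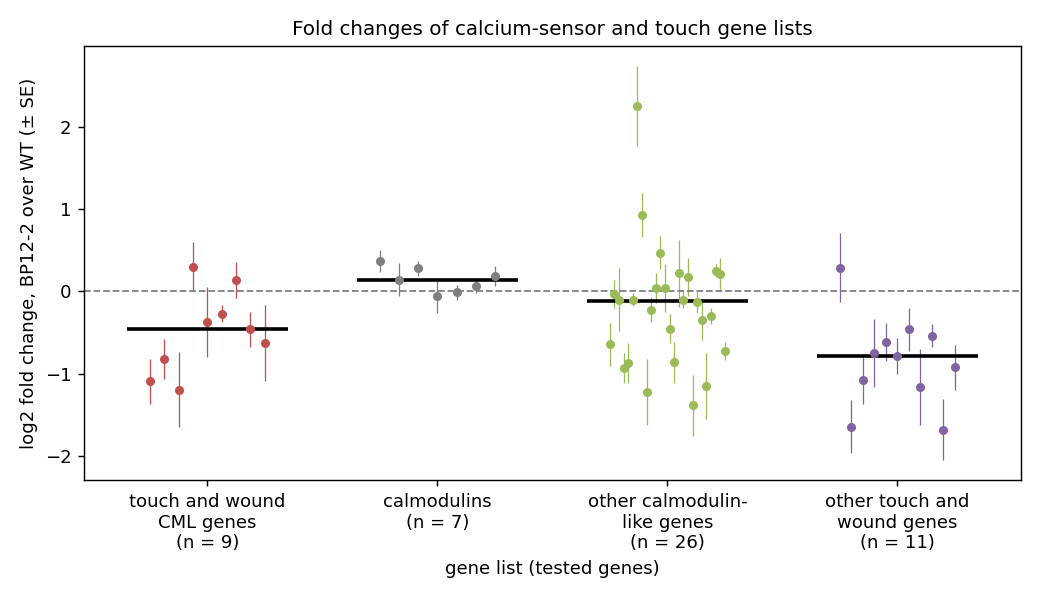
Log2 fold change of BP12-2 over WT (points, ± SE) for the tested genes of 4 lists, with the median of each list as a black line and that of all genes tested as a dashed line. The medians are -0.46 for the touch and wound calmodulin-like genes, 0.14 for calmodulins, -0.11 for other calmodulin-like genes and -0.78 for other touch and wound genes.

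The lists of calcium entry and export, calcium-dependent protein kinases and calmodulin-binding transcription factors had medians between -0.11 and 0.06, against 0.01 over all genes. The 16 genes of calcium entry and export had a median log2 fold change of 0.06, with 6 negative and 10 positive, and at an unadjusted p under 0.05, 3 were lower and 1 was higher. ACA12, a calcium pump of the plasma membrane, had 20.7, 12.2 and 12.1 CPM in BP12-2, against 25.4, 26.7 and 26.2 CPM in WT, without overlap (edgeR adjusted p = 0.120). The 10 calcium-dependent protein kinase genes had a median of -0.07, with 6 negative, and CPK32 was at -0.37 ± 0.10 (edgeR adjusted p = 0.134). The 9 calmodulin-binding transcription factor genes had a median of -0.11, with 8 negative. SARD1, a regulator of salicylate synthesis, had 1.10, 1.20 and 0.989 CPM in BP12-2, against 2.83, 2.97 and 1.99 CPM in WT, without overlap (edgeR adjusted p = 0.0949). In the 3 lists in this order, 1 of 16, 3 of 10 and 2 of 9 had all BP12-2 libraries below all WT libraries. The share of all genes was 12.2%. All BP12-2 libraries lay above all WT libraries for 2, 0 and 0, against 2347 of the 19436 genes tested. No gene of these 3 lists passed the edgeR quasi-likelihood test. In it, 4 of 16, 2 of 10 and 2 of 9 had an unadjusted p under 0.05 in either direction, against 18.2% of all genes. Those lower were 3 of 16, 2 of 10 and 2 of 9, against 9.20% of all genes. Those higher were 1 of 16, 0 of 10 and 0 of 9, against 9.03%.

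The 7 genes listed for proteins that bind or act with the members had a median of -0.20, with 5 negative; 0 passed the edgeR quasi-likelihood test, and 2 were lower at an unadjusted p under 0.05, against 9.20% of all genes. SGS3, an RNA-silencing protein that CML38 is known to bind, had 25.2, 17.9 and 23.9 CPM in BP12-2, against 24.0, 37.6 and 36.9 CPM in WT. WT replicate 1 lay among the BP12-2 libraries. JAR1, which makes the active form of jasmonate, had 121, 88.5 and 104 CPM in BP12-2, against 108, 123 and 128 CPM in WT, and the groups overlapped. AT2G46600 had 71.1, 52.3 and 59.7 CPM in BP12-2, against 104, 80.5 and 80 CPM in WT (log2 fold change -0.53 ± 0.15, edgeR adjusted p = 0.145). It was the 1 gene of these 7 with all BP12-2 libraries below all WT libraries, against 12.2% of all genes.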

How the data were processed

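The deposited values were whole-number counts per gene, not normalized. Per the series design text in the labels, paired-end HiSeq reads were aligned to TAIR9 with Bowtie and counted with HTSeq, and the authors used edgeR; versions, counting mode and strand use were not given in the sources used here. Total RNA was isolated with an RNeasy kit, per the labels' protocols. Sample titles gave the group and replicate number. The smallest chi-square per degree of freedom between 2 libraries was 10.9, so no library repeated another.

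Of 32313 gene codes 8089 were 0 throughout, and filterByExpr (count minimum 10, total minimum 15) left 19436. CPM values were scaled by TMM. BP12-2 was tested against WT with the edgeR quasi-likelihood F test with a trended dispersion, 2-sided, with Benjamini-Hochberg adjustment over all genes tested and a threshold of 0.05; the script was tested on simulated data. Versions were Biopython 1.88, DESeq2 1.42.0, limma 3.58.1, edgeR 4.0.16 and R 4.3.3. Names, gene models and sequences came from RefSeq annotation and genome TAIR10.1, and no coordinates were converted from TAIR9. A motif was searched in the 300 bases before each annotated start.

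The members and comparison lists were chosen with earlier results of these data known. Genes named were the members, TOR, their calmodulin-related neighbours, up to 3 genes per list by level and up to 3 by p, and the 5 genes closest to the members in pattern; not every gene the rule allows is printed. Alternatives were RLE factors, library totals, no filter, a mean of at least 5 CPM, limma voom, DESeq2, the exact test of edgeR, leaving out each library, a replicate block, a term for BP12-2 replicate 1 and WT replicate 3, and the 4 libraries without that pair.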

Additional observations from a re-analysis of the deposited data

How the results depend on the processing

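Depth limits CML37, CML38, CML39 and CML43, which rest on few counts. Of 141 values of single members under the alternatives, 134 kept their direction and side of the threshold. Those that turned were CML43 at -0.07 without BP12-2 replicate 1 and -0.03 in the 4 libraries, CML37 at 0.01 without WT replicate 1 and CML42 at -0.08 without WT replicate 2; the cause was not tested. With a library left out, CML37 ran from -0.68 to 0.01, CML42 from -0.08 to 0.27 and CML43 from -0.07 to 0.49. With DESeq2, the edgeR exact test and the term for the libraries apart in clock transcripts, 1 member passed, TCH3 each time, in place of 0. At an unadjusted p under 0.05, TCH3 and CML23 stood in the main fit and in every alternative, while CML38 and CML9 did not. By DESeq2 and the edgeR exact test, TCH2 was under that p and CML9 was not. The members' median ran from -0.68 to -0.30 with a library left out. TCH3 ran from -1.31 to -0.87 over all alternatives, with adjusted p from 0.00837 to 0.322.

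Over all genes, 13 passed the edgeR quasi-likelihood test, with 12 lower and 1 higher. The count was 56 with no filter, 620 by DESeq2, 841 by the exact test, 22 by limma voom, 992 with the term and 38 in the 4 libraries. The lower and higher calls were 336 and 284 by DESeq2, 443 and 398 by the exact test, 503 and 489 with the term, 40 and 16 with no filter, and 24 and 32 without WT replicate 1. It was 0 without BP12-2 replicate 3 (2382 at an unadjusted p under 0.05), 1 without BP12-2 replicate 2 or WT replicate 2, 2 without WT replicate 3 and 56 without WT replicate 1.

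No pairing by replicate number was visible: correlations of deviations from the group means were -0.31, 0.06 and -0.30. Deviations of 3 libraries from their own mean are not independent, so these values cannot decide whether the libraries were paired. With the replicate block 0 genes passed (2558 at an unadjusted p under 0.05) and 0 members (3 at that p), and TCH3 was at -1.09 (edgeR adjusted p = 0.242). Of the BP12-2 libraries, 0 correlated best with the WT library of their own number.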
